A study of Mus musculus with 6 samples.

Results

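The class 3 semaphorins of the mouse, Sema3a to Sema3g, were followed in endothelial cells sorted from LN. Their 7 genes were represented by 18 probe sets, out of 45037 probe sets and 18193 genes with a probe set of their own, and every probe set assigned to 1 of these symbols alone was kept, without regard to its values. The 3 double-positive arrays and the 3 CD31+ arrays (replicates 1 to 3 of each) hold RNA of wild-type C57BL/6 mice 6 weeks of age, from pooled skin-draining and mesenteric LN that were digested, depleted of CD45+ cells with magnetic beads and sorted by gp38 and CD31. In each group 20 ng of RNA went through 2 rounds of linear amplification before hybridization. The labels give 1 group the words BEC and double positive and the other the words LEC and CD31+, whereas in the study's gates LEC are gp38+ CD31+ and BEC are gp38neg CD31+. The arrays are therefore called by the gate word, and each difference is double positive minus CD31+ on the log2 scale. Reading the labels by the cell type word would turn every sign round and leave every size and p as it is.

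Semaphorins are guidance molecules first studied for turning away growing axons. Those of class 3 are secreted, bind the co-receptors neuropilin-1 and neuropilin-2, and signal through plexins of the A family, while Sema3e can bind plexin D1 without a neuropilin. In blood and lymphatic vessels they shape sprouting, branching and valves, and neuropilins there also serve as co-receptors of VEGF, so the same receptor takes part in guidance by semaphorins and in growth by VEGF.

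The markers followed the gate word. Lyve1, a hyaluronan receptor of lymphatic endothelium, had a log2 value of 11.08 ± 0.108 in the double-positive and 5.76 ± 0.294 in the CD31+ arrays (SD, n = 3 each), and Cd34 of blood endothelium had 3.39 ± 0.166 and 7.76 ± 0.322. Of 10 measured lymphatic markers 7 were called higher and 0 lower at 5% FDR in limma, and of 11 blood endothelial markers 0 higher and 5 lower. Of all genes 1.06% were called higher and 0.225% lower. With the replicate number as a block 0 markers of either list were called. A filter on dim probe sets kept those at 5 or more on the log2 scale in 3 or more arrays. With this filter and the block 10 markers were called higher and 8 lower, against 49.2% and 5.25% of all genes kept. Markers such as Stab2 passed the filter only through the group where they are bright, so these counts are no added support. Prox1, a master regulator of lymphatic fate, overlapped between the groups at its brightest probe set (7.50 ± 1.48 and 7.43 ± 0.568) and did not at another (7.17 ± 0.352 and 3.46 ± 0.752), where the difference was 3.72 (adjusted p = 0.0743, limma). The brightest probe set of Pecam1, the gene of CD31, was dim throughout (2.41 and 2.48). The mean log2 value over 8 reticular fibroblast genes was 3.13 to 3.84 in the double-positive and 4.38 to 5.60 in the CD31+ arrays, and over 7 pericyte and smooth muscle genes 3.40 to 3.47 and 3.57 to 4.16. Some single genes differed more. Col3a1 had 4.08 ± 0.919 and 7.22 ± 0.846, Col1a2 3.34 ± 0.657 and 6.45 ± 0.853, and Acta2 3.98 ± 0.423 and 6.32 ± 1.13. Their groups did not overlap (adjusted p = 0.226, 0.174 and 0.365, limma). Without overlap, 5 of the 8 and 2 of the 7 genes were lower and 0 higher, against 3.42% and 16.9% of all genes. Leukocyte genes (9 measured, 2.58 to 2.62 and 2.61 to 2.92) and nerve and Schwann cell genes (7 measured, 2.67 to 2.68 and 2.66 to 2.68) were dim in all arrays. The part of these other cells in the results below was not tested.

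The sequences upstream of 3 genes whose levels separated the groups, Sema3d and Sema3a toward the double-positive and Sema3g toward the CD31+ arrays, are shown first, from RefSeq (GRCm38.p6, plus strand), each from 250 to 11 bases before an annotated start. The groups of Sema3c, dim in both, did not overlap either, and its sequence is not shown. Sema3d lies at chr5:12382916-12383155, Sema3a at chr5:13396534-13396773 and Sema3g at chr14:31217623-31217862. The start used for Sema3a is an internal one, 271962 bases after the start of the gene. Capitals mark matches, on either strand, to TGACG, the core of the element bound by CREB proteins, which in Sema3d is read on the minus strand, and to TATAA, the core of the TATA box, which in Sema3g is read on both.
Sema3d: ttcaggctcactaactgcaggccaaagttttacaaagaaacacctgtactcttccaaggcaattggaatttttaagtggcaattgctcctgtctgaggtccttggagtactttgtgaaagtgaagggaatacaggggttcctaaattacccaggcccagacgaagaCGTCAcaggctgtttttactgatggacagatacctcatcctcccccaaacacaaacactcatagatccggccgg
Sema3a: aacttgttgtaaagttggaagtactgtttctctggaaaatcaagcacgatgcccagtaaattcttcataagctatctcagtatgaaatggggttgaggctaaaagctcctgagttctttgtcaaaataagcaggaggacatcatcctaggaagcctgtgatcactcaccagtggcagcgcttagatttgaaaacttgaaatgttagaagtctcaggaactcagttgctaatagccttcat
Sema3g: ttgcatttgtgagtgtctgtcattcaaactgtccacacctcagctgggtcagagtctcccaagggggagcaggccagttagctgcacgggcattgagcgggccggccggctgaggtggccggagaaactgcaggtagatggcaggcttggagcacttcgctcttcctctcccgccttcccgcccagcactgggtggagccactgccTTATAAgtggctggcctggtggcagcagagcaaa

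None of the 3 windows held ACAAT (bound by SOX proteins), AGGTCA (nuclear receptors such as NR2F2), AGATAA (bound by GATA factors), TAAACA (forkhead), TGGGAA (RBPJ) or CCGGAA (ETS) on either strand, letters found in 27.1%, 13.5%, 9.74%, 11.8%, 20.8% and 11.2% of 32851 windows of the same length. The Sema3c window held none of these either, and that of Sema3e only ACAAT, once, so the absence is not particular to the genes shown. The Sema3d window held TGACG once, as 16.9% of all windows did at least once. The Sema3g window held TATAA on both strands in 1 overlapping stretch whose first letter lies 44 bases before the start, while 22.4% of all windows held it anywhere on either strand. These 2 motifs were added after the sequences had been read. By CpG the windows were poor to middling, with 4 in Sema3d, 2 in Sema3a and 8 in Sema3g, against a median of 5, while that of Sema3c held 37, more than 98.3% of all windows.

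At the brightest probe set of each gene, which is the one with the highest mean over the 6 arrays, Sema3d and Sema3a lay higher in every double-positive array than in any CD31+ array, and Sema3g and Sema3c lower. Sema3b, Sema3e and Sema3f stayed between the lowest value of the arrays, 2.39, and 2.90. In limma 1 of the 7 genes was called higher at 5% FDR, Sema3d, and 1 lower, Sema3g, against 1.06% of all genes called higher and 0.225% called lower. Groups that did not overlap were found for 2 members in the higher and 2 in the lower direction, against 16.9% and 3.42% of all genes at their brightest probe sets. The median difference over the 7 genes was 0.00, as it was over all genes. With 3 arrays against 3 an exact permutation test cannot give a 2-sided p under 0.1, and no source used here says how many animals each array pools.

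**Figure D1:**
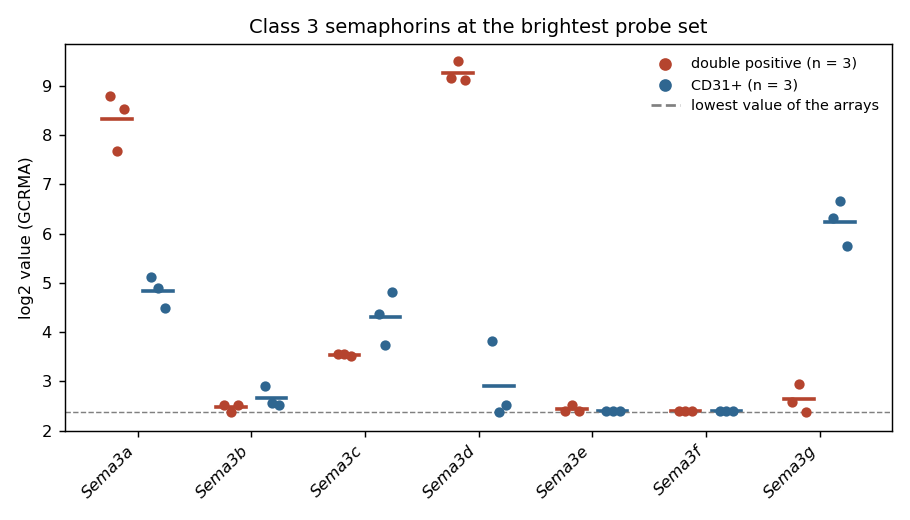
Log2 values (GCRMA) of the 7 class 3 semaphorins at the brightest probe set, 1 point per array, with bars at the group means and a dashed line at the lowest value of the arrays. Sema3d and Sema3a lie higher in the double-positive arrays, Sema3g and Sema3c higher in the CD31+ arrays, and Sema3b, Sema3e and Sema3f near 2.39 in both.

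Sema3d, which acts on endothelial patterning in the mouse embryo, was bright in the double-positive arrays and near the lowest value in most CD31+ arrays. At probe set 1429459_at its log2 values were 9.15, 9.49 and 9.11 in the double-positive arrays, against 3.83, 2.39 and 2.53 in the CD31+ arrays. The double-positive arrays lay within a narrow band, while CD31+ replicate 1 stood above the other CD31+ arrays and still 5.28 below the dimmest double-positive array. The means were 9.25 ± 0.209 and 2.92 ± 0.792 (SD, n = 3 each), and Sema3d rose by 6.33 (standard error 0.453, 95% interval 5.11 to 7.55, adjusted p = 0.0309, limma), or 80.4-fold on the linear scale (34.5 to 187.0). With CD31+ replicates 2 and 3 next to the lowest value, this fold depends on where that value lies. In bulk RNA of this kind, fewer cells with the transcript and less transcript per cell cannot be told apart.

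The call of Sema3d was lost on leaving out any 1 array other than CD31+ replicate 1 (adjusted p = 0.0906 to 0.144, limma), and without that array the difference was 6.78 (adjusted p = 0.0176, limma). With the replicate number as a block, since same-numbered arrays deviated together, the adjusted p was 0.208, in a fit that called 0.022% of all genes higher and 0.0% lower. Same-numbered arrays differed by 5.32 to 7.09, higher in 3 of 3. The other probe set of Sema3d, designed from the same sequence record, was dim, at 2.63, 3.42 and 2.58 in the double-positive and 2.56, 2.46 and 2.49 in the CD31+ arrays, and its difference was 0.37 (standard error 0.26), with no overlap but a gap of only 0.02. With both probe sets averaged the difference was 3.35 (adjusted p = 0.0212, limma).

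Sema3a, the founding member of the class and a ligand needed for lymphatic valves in the mouse, was measured in both groups and was the brighter in the double-positive arrays. At probe set 1420416_at it had 8.78, 7.67 and 8.53 in the double-positive arrays, against 5.12, 4.90 and 4.49 in the CD31+ arrays. The groups did not overlap, and the smallest gap between them was 2.55. The means were 8.33 ± 0.583 and 4.83 ± 0.318 (SD, n = 3 each), and the difference of 3.49 (standard error 0.368, 95% interval 2.51 to 4.48) did not pass the test over all probe sets (adjusted p = 0.0574, limma). On the linear scale this is 11.3-fold (5.68 to 22.3). Without any 1 array the difference was 3.27 to 3.82, with adjusted p-values of 0.0625 to 0.214 in limma.

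The difference of Sema3a passed once dim probe sets had been filtered out, with an adjusted p of 0.000208 from limma. That filter left 3 of the 7 members, Sema3a, Sema3d and Sema3g, and called all 3, the first pair higher and Sema3g lower, while it called 36.0% of the genes it kept higher and 4.34% lower. Together with the replicate block it called the same 3 members, against 49.2% higher and 5.25% lower of the genes kept. Because a member such as Sema3d passed this filter only through the group where it is bright, these calls are values and no added support. A second probe set of Sema3a had 4.21, 3.49 and 3.35 in the double-positive and 2.39, 2.76 and 3.09 in the CD31+ arrays, also without overlap (difference 0.93, adjusted p = 0.50, limma), and the third lay at 2.39 in all 6 arrays. Averaged over the 3 probe sets the difference was 1.48 (adjusted p = 0.0319, limma).

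Sema3g, a semaphorin made mostly by endothelium and a ligand of neuropilin-2, went the other way. Its single probe set, 1435361_at, had 2.58, 2.94 and 2.39 in the double-positive arrays, against 6.32, 6.67 and 5.74 in the CD31+ arrays. The double-positive arrays lay at or just above the lowest value of the arrays, and all CD31+ arrays lay at least 2.80 above the brightest of them. With means of 2.64 ± 0.279 and 6.25 ± 0.470 (SD, n = 3 each), Sema3g fell by 3.60 (standard error 0.303, 95% interval -4.42 to -2.79, adjusted p = 0.0404, limma), which is 12.2-fold lower (6.92 to 21.4). As for Sema3d, this fold depends on where the lowest value lies, here through the double-positive arrays. The call was lost without any 1 of the 6 arrays, with adjusted p-values of 0.064 to 0.181 from limma and differences of -3.86 to -3.39, and with the replicate block (adjusted p = 0.134, limma). Same-numbered arrays differed by -3.74 to -3.35.

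Sema3c, which guides the cells that divide the outflow tract of the heart, was dim in both groups. Its brighter probe set had 3.55, 3.55 and 3.52 in the double-positive arrays, against 4.36, 3.73 and 4.81 in the CD31+ arrays. The double-positive arrays were nearly equal and the CD31+ arrays were spread above them, the nearest by 0.19. The difference was -0.76 (95% interval -1.57 to 0.04, adjusted p = 0.60, limma), and the other probe set of Sema3c lay at 2.39 in all 6 arrays.

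Sema3b, Sema3e and Sema3f had values at or not far above the lowest value of the arrays. Sema3b, which has been studied as a tumor suppressor, had at its brightest probe set 2.53, 2.39 and 2.53 in the double-positive and 2.90, 2.56 and 2.53 in the CD31+ arrays. The groups met at 2.53, and the difference was -0.18 (95% interval -0.50 to 0.15). Another probe set of Sema3b lay at 2.39 in the double-positive arrays and at 2.69, 2.48 and 2.39 in the CD31+ arrays, and the third at 2.39 in all 6. Sema3e, the ligand of plexin D1, had 4 probe sets with values of 2.39 to 2.52 in the double-positive and 2.39 to 2.40 in the CD31+ arrays. Sema3f, a ligand of neuropilin-2 that restrains vessel growth, had 3 probe sets with values of 2.39 to 2.40 in every array. At such values a difference between the groups was not detectable, which does not show that the transcripts were absent.

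**Figure D2:**
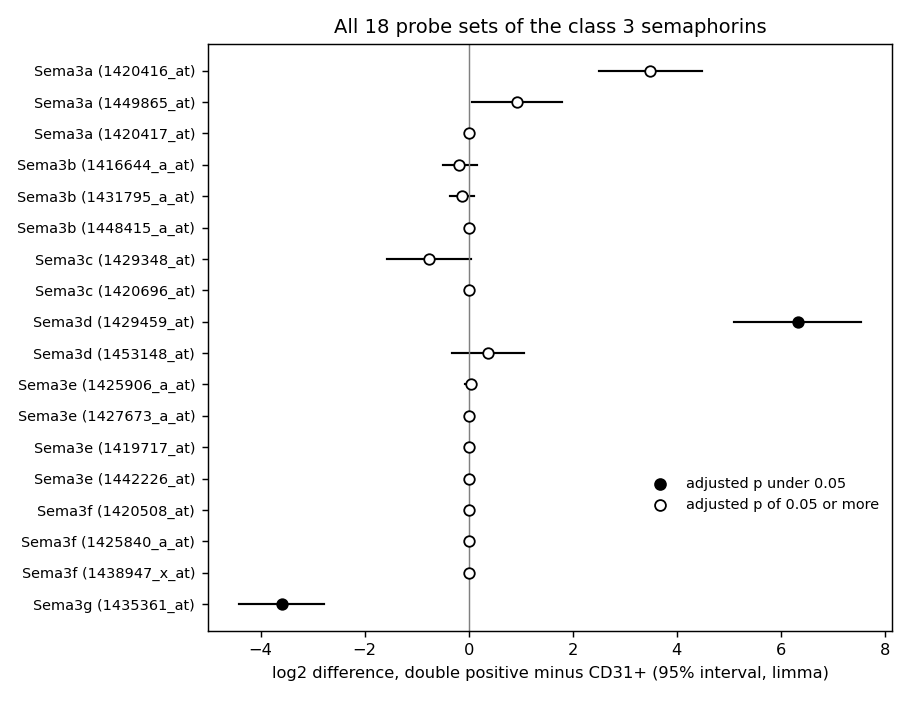
Log2 difference, double positive minus CD31+, of all 18 probe sets of the class 3 semaphorins, with 95% intervals from limma and filled points where the adjusted p was under 0.05. The filled points are Sema3d at 6.33 and Sema3g at -3.60, and probe sets of 1 gene differ widely, as those of Sema3a at 3.49, 0.93 and 0.00 do.

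More probe sets were bright in the double-positive arrays, with a log2 value of at least 5 at 13.8% to 14.7% of probe sets, against 10.7% to 12.6% in the CD31+ arrays. The arrays were not brighter as a whole, with medians of 2.44 to 2.45 in the double-positive and 2.47 in the CD31+ arrays. The median difference was 0.75 over bright probe sets (mean 5 or more) and 0 over all. Subtracting from each array the median of its bright probe sets lowered every difference by 0.68, which left Sema3d at 5.65 and Sema3a at 2.82 and took Sema3g to -4.28 and Sema3c to -1.44. Genes near the lowest value of the arrays are moved below 0 by this step alone. In the fit of centred arrays without the filter, 6 of the 7 members had a probe set called lower, among them Sema3f, at 2.39 to 2.40 in all 6 arrays before the step, and Sema3a through the probe set at 2.39. The share of all genes called in that fit was not computed.

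**Figure D3:**
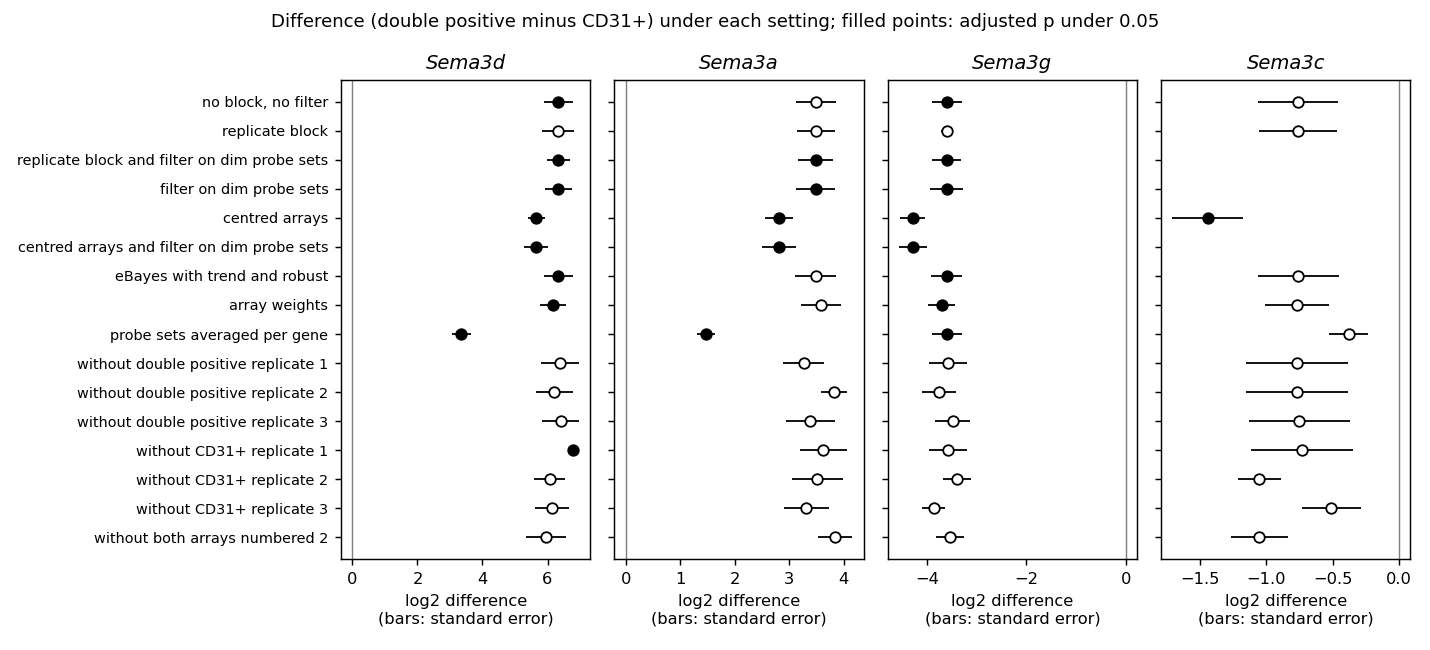
Log2 difference, double positive minus CD31+, of 4 class 3 semaphorins (columns) under each setting of the test (rows), with standard errors, filled where the adjusted p was under 0.05 and blank where the filter removed the probe set. Sema3d and Sema3a stay above 0 and Sema3g and Sema3c below 0 in every row, while the side of the threshold changes between rows.

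Of the receptors of these ligands, neuropilin-1 was lower in the double-positive arrays and the others did not separate the groups. Of 7 receptor genes limma called 0 higher and 1 lower, against 1.06% and 0.225% of all genes. Nrp1, the co-receptor through which Sema3a acts, had 5.45, 5.41 and 4.40 in the double-positive arrays, against 9.74, 9.19 and 9.34 in the CD31+ arrays. The groups lay at least 3.74 apart, and Nrp1 fell by 4.34 (standard error 0.366), with an adjusted p of 0.0406 in limma. Of the other Nrp1 probe sets, those with differences of -4.99 (limma, adjusted p = 0.0208) and -5.64 (limma, adjusted p = 0.0467) also passed, and a dim one at -0.97 did not (limma, adjusted p = 0.659). Nrp1 was no longer called without any 1 array other than double-positive replicate 1. With the replicate block the adjusted p of the brightest was 0.201.

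Nrp2, which pairs with Sema3f and Sema3g and is known from lymphatic endothelium, had 7.34, 6.02 and 7.89 in the double-positive and 6.25, 6.25 and 6.55 in the CD31+ arrays. Double-positive replicate 2 lay below every CD31+ array and the other double-positive arrays above them, so the groups overlapped (difference 0.73, standard error 0.538, adjusted p = 0.659, limma). Plxna2, a signalling plexin, had 5.86 ± 0.248 and 5.47 ± 0.668 (SD, n = 3 each), a difference of 0.40 (adjusted p = 0.659, limma). Plxna1, Plxna3 and Plxna4, its relatives, had group means of 2.44 to 2.86 and Plxnd1, the plexin bound by Sema3e, 3.77 and 3.83, so these 4 were dim in both groups, with differences of -0.20 to 0.21.

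Among the partners of these receptors the VEGF receptors went in different directions. Flt1, which binds VEGF-A, had 3.51, 3.45 and 3.54 in the double-positive and 7.77, 8.24 and 8.05 in the CD31+ arrays and fell by 4.52 (standard error 0.134, adjusted p = 0.0111, limma), with an adjusted p of 0.132 under the replicate block. Flt4, the receptor of VEGF-C that pairs with neuropilin-2, had 7.48, 6.71 and 7.58 against 4.26, 3.55 and 4.15, a difference of 3.28 that did not pass (adjusted p = 0.0548, limma). At these brightest probe sets neither gene's groups overlapped, while those of Kdr did, at 6.88 ± 0.354 and 6.23 ± 0.526. A dim probe set of each did overlap, with differences of 0.33 for Flt4 and -0.77 for Flt1 (adjusted p = 0.659 for each, limma). Further Flt1 probe sets, with differences of -5.48 and -3.48, did not overlap. Nrcam, an adhesion molecule that pairs with neuropilin-2 in neurons, had 5.06, 5.05 and 5.75 in the double-positive and 3.34, 3.31 and 3.31 in the CD31+ arrays (difference 1.97, adjusted p = 0.0642, limma). Its other probe sets were dim, with differences of 0.47, -0.02 and -0.02. L1cam, which pairs with neuropilin-1, had 6.19 and 6.26 at its brightest probe set and 2.40 in all 6 arrays at another. Chl1 and Cntn2, its relatives, lay near the lowest value.

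Of the 5 VEGF ligands that share neuropilins with the semaphorins, limma called 0 higher and 0 lower, against 1.06% and 0.225% of all genes. At such shares 0 calls among 5 genes are no result about them. Vegfc, the growth factor of lymphatic vessels, had 5.22, 4.63 and 5.0 in the double-positive arrays, against 8.82, 7.95 and 7.64 in the CD31+ arrays, a difference of -3.19 without overlap (adjusted p = 0.0692, limma). Vegfa had 5.86 ± 0.515 and 4.47 ± 0.361 (SD, n = 3 each), a difference of 1.38 (adjusted p = 0.292, limma) that was 0.70 with centred arrays. Its other probe set lay at 2.74 to 2.75 in all 6 arrays. Vegfb and Pgf were dim, with group means of 2.43 to 2.56.

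Downstream of the receptors, 18 genes of the cytoplasmic machinery were measured. Of these limma called 0 higher and 0 lower, against 1.06% and 0.225% of all genes. At such shares 0 calls among 18 genes are no result about them. Before adjustment 2 of each direction had a p under 0.05, against 14.4% of all genes in the higher and 2.44% in the lower direction. Of the 6 genes that the filter on dim probe sets kept, 2 were called higher (Mical1 and Rac1), near the 36.0% of all genes kept, and 1 lower (Fyn), against 4.34%. Mical1 differed by 1.44 at the probe set kept and by -0.13 at a dim one. Rac1, the small GTPase of growth cone collapse, had 10.09 ± 0.312 in the double-positive and 8.21 ± 0.630 in the CD31+ arrays (SD, n = 3 each), a difference of 1.88 (adjusted p = 0.203, limma). Fyn, a kinase that acts in the response to Sema3a, had 5.68 ± 0.474 and 7.12 ± 0.236, a difference of -1.44 (adjusted p = 0.196, limma). Cdk5, the kinase that works with Fyn, differed by -0.51 at low values (2.49 and 3.01), and Rnd1, a GTPase bound by plexins, by 0.98 (adjusted p = 0.514, limma). Dpysl2, the collapsin response mediator that carries the signal to microtubules, was bright in both groups at 1 probe set, at 7.85 ± 0.125 and 7.56 ± 0.215. Another of its probe sets lay at 2.39 in all 6 arrays.

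The proteases that cut class 3 semaphorins were measured at levels from dim to bright. Pcsk5, a proprotein convertase, had 8.59 ± 0.365 in the double-positive and 7.36 ± 0.367 in the CD31+ arrays (SD, n = 3 each), a difference of 1.24 (adjusted p = 0.248, limma) that passed with the filter and was 0.56 with filter and centred arrays. Its other probe sets were dim, with differences of 0.46, -0.23, -0.04 and 0.00. Adamts1, which cleaves Sema3c, had 11.37 ± 0.244 and 10.59 ± 0.275, and its difference of 0.77 (adjusted p = 0.316, limma) was 0.10 with centred arrays. Furin, the convertase best known for this cleavage, differed by 0.05 and Pcsk7 by -0.12, with dim values throughout for Furin (2.73 and 2.68). The receptors, partners, VEGF ligands, cytoplasmic genes and proteases together were 42 genes with 99 probe sets. Of these limma called 0 higher and 2 lower, Nrp1 and Flt1, against 1.06% and 0.225% of all genes. Both are also among the 5 blood endothelial markers called lower above, so the 2 results are not separate. Before adjustment 7 in the higher and 5 in the lower direction had a p under 0.05 (14.4% and 2.44% of all genes). The median difference was 0.00.

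**Figure D4:**
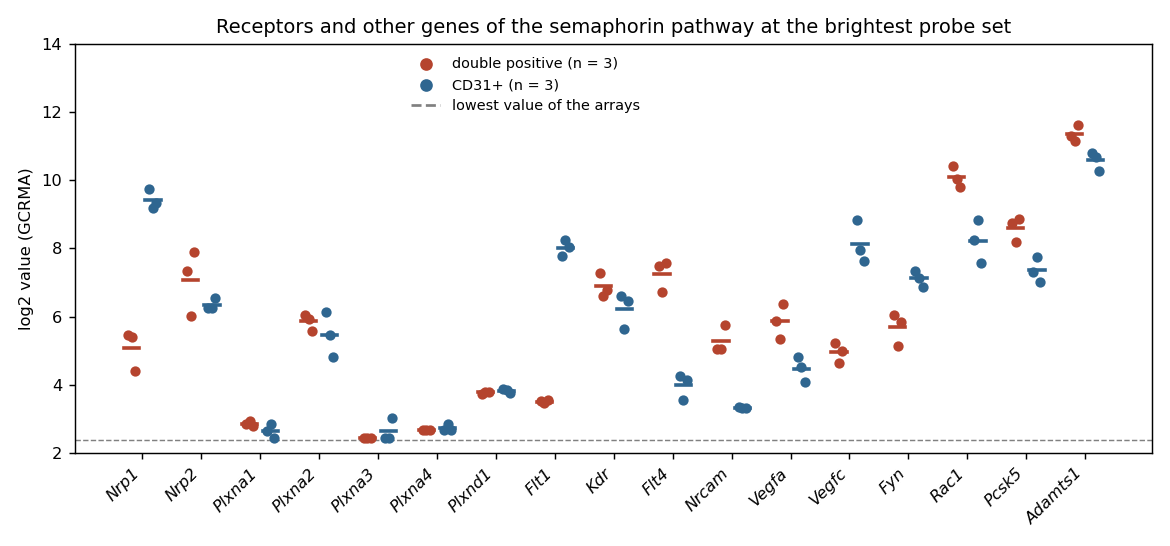
Log2 values (GCRMA) of 17 receptors, partners, ligands and enzymes of the semaphorin pathway at the brightest probe set, 1 point per array, with bars at the group means and a dashed line at the lowest value of the arrays. Nrp1 and Flt1 lie more than 4 lower in the double-positive arrays, Vegfc 3.19 lower and Flt4 3.28 higher.

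Genes with a profile over the 6 arrays like that of a member were sought among genes with a mean log2 value of at least 5, as a description, since arrays in 2 groups make high correlations common. For Sema3d the 3 nearest were Mmrn1 (Pearson r = 0.9992), a matrix protein of lymphatic endothelium, Selenot (0.9991) and Dpyd (0.9988), and 9.77% of 3982 genes reached 0.95. Like Sema3d, Mmrn1 had its highest CD31+ value in replicate 1, at 5.08, with 3.28 and 3.72 in the other CD31+ arrays. For Sema3a they were Ube2f (0.9994), Ptpn14 (0.9988) and Ipo5 (0.9985), with 10.7% at or above 0.95. For Sema3g they were Sox17 (0.9959), a transcription factor of arterial endothelium, Ebf1 (0.9947) and Adcy5 (0.9946), and 1.41% of genes reached 0.95. Sox17 had 4.50 ± 0.295 in the double-positive and 9.67 ± 0.826 in the CD31+ arrays (SD, n = 3 each).

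In the RefSeq order of coding genes, Sema3d and Sema3a are direct neighbours on chromosome 5, followed by Sema3e and Sema3c, while Sema3b and Sema3f lie near each other on chromosome 9 and Sema3g on chromosome 14. The neighbouring pair on chromosome 5 held both members with higher values in the double-positive arrays. Between Sema3d and Sema3c there were 18 other coding genes, of which 5 had a probe set of their own and 0 reached a log2 value of 5 on 3 arrays. Cacna2d1, a calcium channel subunit, differed by 0.61 and Hgf, hepatocyte growth factor, by 0.64, with SDs of 2.26 in the double-positive and 1.08 in the CD31+ arrays. Cd36, the fatty acid transporter that follows Sema3c, had 9.91 ± 0.644 and 7.60 ± 0.630 (SD, n = 3 each), a difference of 2.30 (adjusted p = 0.221, limma). On chromosome 9, Gnai2 between Sema3b and Sema3f was bright in both groups, at 9.71 and 8.99, next to those dim members. The neighbours were looked up after the values of the members had been seen.

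**Figure D5:**
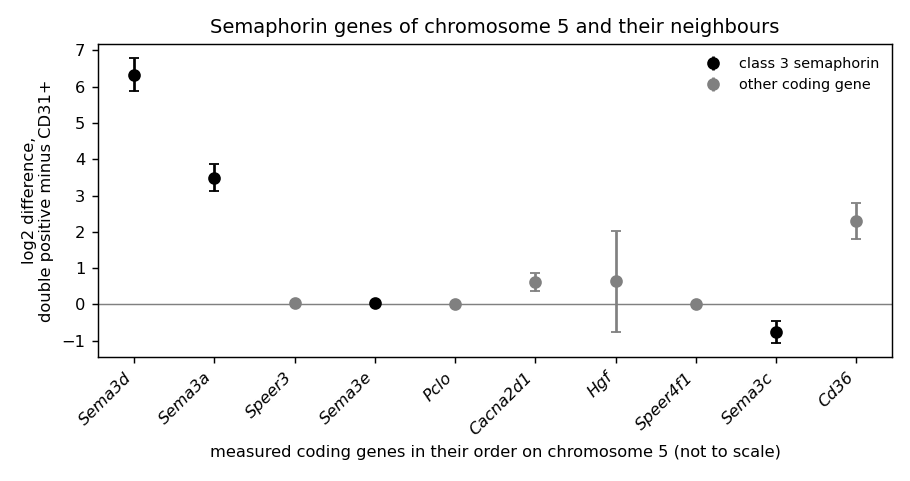
Log2 difference, double positive minus CD31+, with standard errors, of the measured coding genes from Sema3d to Cd36 in their order on chromosome 5, not to scale. Sema3d at 6.33 and Sema3a at 3.49 stand next to each other, and Sema3e and the genes after it lie between -0.76 and 0.64 up to Cd36 at 2.30.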

How the data were processed

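RNA of the 6 samples was hybridized to whole-genome mouse expression arrays of Affymetrix. The authors processed them with GCRMA, and each deposited value is the relative log2 abundance of a probe set on 1 array. Versions are not given in the sources used here. The number of arrays limits the precision. Symbols came from the platform's annotation: of 45037 probe sets that are not among the 64 controls, 34945 had 1 gene, 932 several and 9160 none, and 34741 of the 34945 matched RefSeq gene IDs. Double-positive and CD31+ arrays (3 each) were compared with limma 3.58.1 in R 4.3.3 (lmFit, eBayes, default settings) over all 45037 probe sets, unfiltered and unblocked, and p-values were adjusted after Benjamini and Hochberg (5% FDR). For a call of a gene, 1 passing probe set of its own sufficed. The replicate numbers were taken to pair the arrays only in the alternative fits with a block. Deviations from group means correlated between arrays of equal number (r = 0.341, 0.475 and 0.418 across 5764 bright probe sets, mean 5 or more). Between other arrays r was -0.405 to 0.0566, which is no separate evidence, since deviations sum to 0 within each group. Members, gene lists and alternatives were chosen with earlier results of these data known. Named were all members, all neuropilins and class A and D plexins, and the 3 genes most like each bright member. Of the other pathway lists, the genes called and up to 4 per list with the smallest adjusted p were named. Of the marker lists and the other semaphorins only some genes were named, and not every gene called. These and any further genes were named after their values were seen. Alternatives were the block, a filter on dim probe sets, centring, trend and robust, array weights, averaged probe sets and left-out arrays. Promoter sequences were those of RefSeq GRCm38.p6, which listed 5 of the 7 members. Plots were made in Python 3.11.15 (matplotlib 3.10.9).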

Additional observations from a re-analysis of the deposited data

How the results depend on the processing

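The differences of Sema3d, Sema3a, Sema3g and Sema3c kept their direction under every alternative that gave a value, and the calls did not. The class 3 semaphorins called higher and lower numbered 1 and 1, and with the replicate block 0 and 0, without both arrays numbered 2 0 and 0, with the filter on dim probe sets 2 and 1, alone or with the block or centring, with centred arrays and no filter 2 and 6, and with averaged probe sets 2 and 1. The pathway genes called higher and lower numbered 0 and 2, and 0 and 0 with the block, 0 and 0 without both arrays numbered 2, 6 and 4 with the filter, 6 and 5 with filter and block, 3 and 5 with filter and centring, 6 and 38 with centring alone, and 1 and 2 with averaged probe sets. For some fits these counts stand against the shares of all genes tested that were called higher and lower. Those were 1.06% and 0.225% without block or filter, and 0.022% and 0.0% with the block. With the filter they were 36.0% and 4.34%, and with filter and block 49.2% and 5.25%. No such share was computed for centring, averaged probe sets or left-out arrays. The counts of those fits are therefore no result about either list. With centring alone a probe set at 2.39 in all 6 arrays, such as 1 of Plxna1, was called lower through the subtraction. Leaving out 1 array gave 0 to 1 and 0 to 0 of the class 3 semaphorins, and 0 to 1 and 1 to 2 of the pathway genes. With centred arrays Sema3e, near the lowest value of the arrays, reversed to -0.64, which the subtraction brings about by construction. The eBayes fit with trend and robust and the fit with array weights changed none of these counts. The signal limits what can be seen: 37.4% of probe sets lay within 0.1 of the lowest value on all 6 arrays.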

Other observations

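The semaphorins of the other classes, which are mostly bound to the membrane, gave 0 calls in either direction in limma among 13 measured genes. Of all genes 1.06% were called higher and 0.225% lower, so 0 calls among 13 genes are no result about them. Before adjustment 0 in the higher and 2 in the lower direction had a p under 0.05, against 14.4% and 2.44% of all genes. Sema7a, the semaphorin anchored by a lipid, had 6.16 ± 0.139 in the double-positive and 7.68 ± 0.920 in the CD31+ arrays (SD, n = 3 each), a difference of -1.52 (adjusted p = 0.489, limma) that passed as lower with the filter on dim probe sets. Sema6d had 4.08 ± 0.460 and 6.09 ± 1.16, a difference of -2.02 (adjusted p = 0.496, limma), and Sema4c was bright and alike in both groups within its spread, at 7.68 ± 0.211 and 7.81 ± 0.463. The test of a difference between these genes and the class 3 semaphorins was not run.

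Vegfd, a ligand of Flt4, followed the replicate number and not the gate at a pair of its probe sets. One of them had 2.64, 8.99 and 2.41 in double-positive replicates 1, 2 and 3 and 2.64, 8.50 and 2.39 in CD31+ replicates 1, 2 and 3, and the other had 2.44, 8.73 and 2.41 and 4.08, 8.22 and 2.44. The remaining probe set lay at 2.40 in all 6 arrays. None of the class 3 semaphorins was bright on both arrays numbered 2 alone.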
